A study of Mus musculus with 6 samples.

Results

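CXC chemokines are small secreted proteins that steer leukocytes. The 9 genes described here are Cxcl1, Cxcl2, Cxcl5, Cxcl9, Cxcl10, Cxcl12, Cxcl13, Cxcl14 and Cxcl16. They were chosen by symbol, and each matched 1 of the 34745 genes in the count table of a bulk liver RNA-Seq experiment in mice. The study asked how the liver responds to an overdose of acetaminophen (APAP), an analgesic that injures hepatocytes around the central vein. WT mice were fasted for 12 hours, were injected with APAP (300 mg/kg) or saline, and the APAP livers were taken at 12 hours. The study's methods name male C57BL/6J mice aged 8 to 10 weeks. Of 6 samples, 3 per group, 5 libraries were analysed: APAP1 and APAP3, with WT1, WT2 and WT3 from saline mice. The second APAP sample was not analysed here. The labels name each sample only by group and number, so the errors below measure the spread between these libraries.

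The ligands fall into classes that use different receptors. Cxcl1, Cxcl2 and Cxcl5 carry the ELR motif before the first cysteine, bind Cxcr2 and recruit neutrophils. They are typical targets of NF-kB. Cxcl9 and Cxcl10 bind Cxcr3 on activated T cells and NK cells and are typical interferon targets. Cxcl12 binds Cxcr4 and Ackr3 and is made constitutively by stromal cells, in the liver among others by stellate and sinusoidal endothelial cells. Cxcl13 attracts B cells through Cxcr5, Cxcl16 is a membrane-bound ligand of Cxcr6, and Cxcl14 is a homeostatic ligand made mainly by epithelia.

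Of these genes, 6 lie on chromosome 5. The table places Cxcl5 (chr5:90759360-90761624), Cxcl1 (chr5:90891241-90893115) and Cxcl2 (chr5:90903871-90905938) on the plus strand, in GRCm38, within a cluster of 147 kb that holds 7 CXC ligand genes. Cxcl9 (chr5:92321347-92328079) and Cxcl10 (chr5:92346638-92348889) lie on the minus strand, in a second cluster of 44.1 kb with 3 ligand genes that starts 1415 kb beyond Cxcl2. Cxcl13 (chr5:95956951-95961068) lies apart from both. Cxcl12 is on chromosome 6 (chr6:117168535-117181367), Cxcl14 on chromosome 13 (chr13:56288647-56296551) and Cxcl16 on chromosome 11 (chr11:70453983-70459984).

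The promoters of 4 of these genes are shown because the neighbouring pairs Cxcl1 and Cxcl2, and Cxcl9 and Cxcl10, gave different values in these livers. The sequences are RefSeq's (GRCm38.p6), read 5′ to 3′ on the strand of the gene and upstream of its start. They are chr5:90891065-90891240 (plus), chr5:90903719-90903870 (plus), chr5:92348890-92349069 (minus) and chr5:92328080-92328259 (minus), in the order printed. Capitals mark matches to a core of the NF-kB motif, GGG and TTCC with any 3 bases between them, on either strand.
Cxcl1: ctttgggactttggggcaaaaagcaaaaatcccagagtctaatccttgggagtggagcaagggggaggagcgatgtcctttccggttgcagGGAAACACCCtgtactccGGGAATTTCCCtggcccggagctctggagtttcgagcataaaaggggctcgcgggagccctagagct
Cxcl2: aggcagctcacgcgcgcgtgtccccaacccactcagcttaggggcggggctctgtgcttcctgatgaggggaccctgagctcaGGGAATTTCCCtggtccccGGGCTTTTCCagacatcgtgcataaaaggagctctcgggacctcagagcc
Cxcl10: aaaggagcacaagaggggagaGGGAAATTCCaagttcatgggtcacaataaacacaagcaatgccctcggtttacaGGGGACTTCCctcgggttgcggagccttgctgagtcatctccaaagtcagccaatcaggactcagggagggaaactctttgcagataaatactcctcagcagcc
Cxcl9: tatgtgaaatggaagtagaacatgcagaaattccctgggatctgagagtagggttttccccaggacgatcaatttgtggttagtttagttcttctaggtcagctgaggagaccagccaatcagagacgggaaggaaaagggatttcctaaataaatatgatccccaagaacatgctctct
Cxcl1 and Cxcl2 each held the same run of 11 bases, which matches the motif on both strands because its middle bases are free, and so counts as a pair of overlapping matches. It starts at -71 in Cxcl1 and at -97 in Cxcl2, with positions counted from -1 at the base before the RefSeq start. All 4 printed sequences begin at -180. They end at -5 in Cxcl1 and at -29 in Cxcl2, just before the gene positions given above, and at -1 in Cxcl10 and Cxcl9. Each gene had 1 further match, at -89 in Cxcl1 and at -78 in Cxcl2. Cxcl10 had matches at -159 and -104. In the 250 bases upstream of the start, 4.65% of 32851 mouse promoters held the motif. No match was found in the promoters of Cxcl9, Cxcl12, Cxcl13 or Cxcl14, which says only that these letters are not in this window. An interferon-response core, TTTC repeated with any 2 bases between the copies, was searched on both strands. It was present in 2.98% of promoters, and was found in Cxcl10 at -213 and in Cxcl14 at -172. Promoters of 7 of the 9 genes were in the RefSeq table, without Cxcl5 and Cxcl16.

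The libraries held between 13378445 and 15976339 counts. The TMM factors, which correct for differences in composition, ran from 0.783 in WT1 to 1.27 in APAP1. The groups also differed in sex-linked transcripts. After APAP, Xist had 13 and 28 counts, and after saline 3231, 13763 and 13204, while the Y-linked Ddx3y had 1344 and 998 counts against 0, 0 and 1. All 3 saline libraries went against the male mice named in the methods, so treatment and this difference cannot be told apart in any value below, and no result can be given without them. Hepatocyte markers dominated every library, with a summed level of 85746 and 130612 CPM (counts scaled to the size of the library) after APAP and 133485 to 185380 CPM after saline, which matched the labelled tissue, and 0 of 8 were called. Over all tested genes, 7.23% were called and 3.70% were called higher, so a list this small can hold 0 called genes without standing apart. Neutrophil markers summed to 114 and 73.1 CPM after APAP against 4.03 to 8.15 CPM. All 7 tested of 10 were higher, and 6 were called. Of the 7, 5 passed the filter on low counts only through their APAP libraries, 4 of the called among them, so these had to differ. Ly6g and Camp were at 0 in all saline libraries. Cholangiocyte markers summed to 347 and 356 CPM against 47.1 to 52.3 CPM. All 5 tested were higher, and 2 were called, Spp1 and Sox9. Monocyte markers summed to 1671 and 2313 CPM against 1627 to 2277 CPM. Most of that sum was Fn1, at 1415 and 1954 CPM against 1166 to 1583 CPM. The sum thus mainly follows this gene and says little about the other markers. Of the 8, 2 were called higher, Ccr2 and Chil3, the latter tested only through its APAP libraries. Both APAP libraries were above all saline libraries for 4 of the 8, Ccr2, Chil3, Vcan and Plac8, beside 24.0% of all tested genes. They were below for 1, F10, beside 20.1% of all tested genes. Vcan was also tested only through its APAP libraries. None of the 8 markers each of Kupffer cells (273 and 476 CPM against 271 to 403), sinusoidal endothelium (169 and 237 CPM against 167 to 273) and stellate cells (377 and 538 CPM against 532 to 653) was called. Lymphocyte markers stayed low, at 5.23 and 5.13 CPM against 4.81 to 8.04 CPM, and 0 of the 3 tested of 8 were called. In bulk tissue, fewer cells of a type and less RNA per cell cannot be told apart.

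APAP livers held far more mRNA of the ELR ligands Cxcl1 and Cxcl2, more of Cxcl14, and less of Cxcl12 and Cxcl9. The levels of Cxcl10, Cxcl13 and Cxcl16 did not pass the test, and Cxcl5 was too low to be tested. In the quasi-likelihood test of edgeR, with p-values adjusted over all genes after Benjamini and Hochberg, 5 of the 8 tested ligands were called at an adjusted p under 0.05, beside 7.23% of the 13734 tested genes. Of the ligands 3 rose and 2 fell, while 3.70% of all tested genes rose and 3.53% fell. The median log2 fold change of the 8 was 0.79, against 0.03 over all tested genes. At the study's thresholds, an unadjusted p under 0.05 and a fold change of at least 1.5, 4 rose and 2 fell, the added gene being Cxcl13, beside 12.3% and 11.2% of all tested genes. For 6 of the 8 ligands the APAP and saline libraries did not overlap, as for 44.1% of all tested genes. The APAP libraries were above for 4 ligands, beside 24.0% of genes, and below for 2, beside 20.1% of genes. One of the 8, Cxcl2, passed the filter on low counts only through its APAP libraries, so it had to differ.

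**Figure D1:**
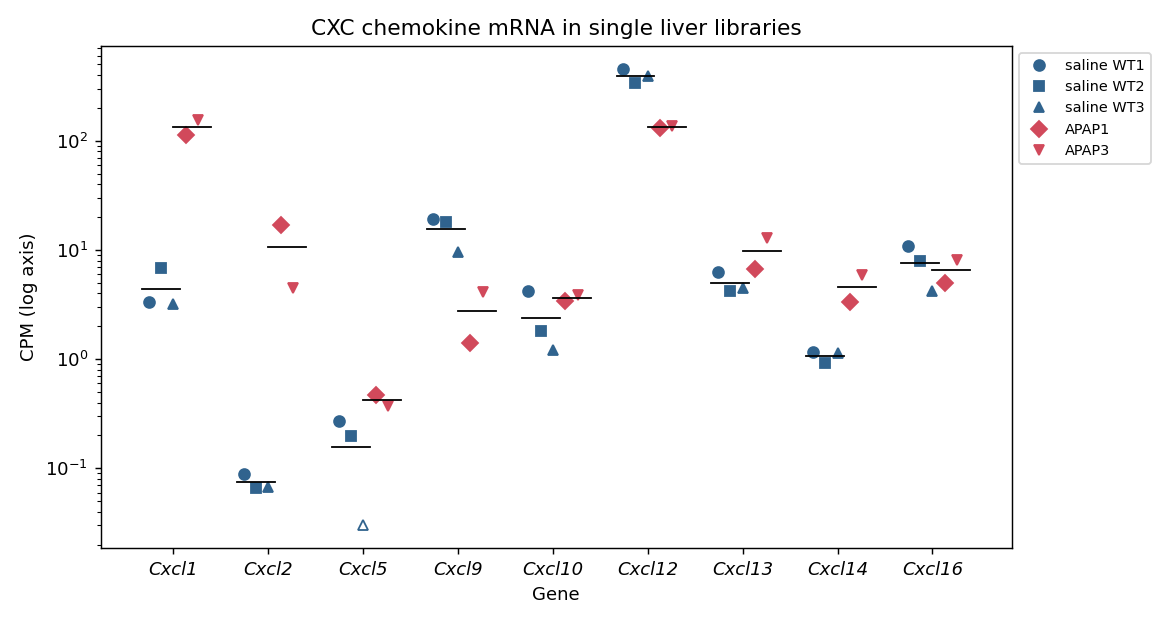
CPM on a log axis of the 9 CXC ligands in each saline library (blue) and APAP library (red), with black lines at the group means; the open triangle is Cxcl5 in WT3, which had a count of 0 and is drawn at the foot of the axis. The APAP points of Cxcl1 (113 and 153 CPM) and Cxcl2 stand above all saline points, and those of Cxcl12 and Cxcl9 below.

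Cxcl1, a Cxcr2 ligand, had 1925 and 2480 counts in APAP1 and APAP3 and 37, 102 and 48 counts in WT1, WT2 and WT3. In CPM these were 113 and 153 against 3.32, 6.78 and 3.21. The APAP libraries were close to each other and at least an order of magnitude above every saline library. The means were 133 ± 28.4 CPM (SD, n = 2) and 4.43 ± 2.03 CPM (SD, n = 3). Cxcl1 rose by 4.90 on the log2 scale, with a standard error of 0.39 and a 95% interval of 3.98 to 5.82, a 29.9-fold rise (edgeR adjusted p = 0.00213). It lay at percentile 99.3 of the log2 fold changes of all tested genes. The call held in each of 11 other ways of processing, with log2 fold changes of 4.65 to 5.35.

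Cxcl2, the closest paralogue of Cxcl3 and the second Cxcr2 ligand with a strong signal, had 290 counts in APAP1 and 72 in APAP3, against 1 count in each saline library. APAP1 held 17.0 CPM and APAP3 held 4.45 CPM, so the APAP libraries differed far more for Cxcl2 than for Cxcl1, and in the opposite order. Both stood clear of the saline libraries, at 0.0664 to 0.0896 CPM. The ratio of the summed counts, 362 against 3 and scaled by library size, was 150 with an exact 95% interval of 50.8 to 729, which covers counting error only. The fitted log2 fold change of 7.05 (standard error 0.78, edgeR adjusted p = 0.00569) depends on the prior count at so low a saline level. It was 5.77 without APAP1 and 7.70 without APAP3, and the call held in the 10 alternatives that tested the gene. Of the 50-base words in its exons, 3.37% also occur in Cxcl3, whose own counts were 5 and 0 after APAP and 0, 5 and 0 after saline.

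Cxcl5, the third ELR ligand on the list, was near the limit of detection. APAP1 and APAP3 had 8 and 6 counts, and WT1, WT2 and WT3 had 3, 3 and 0. A count of 3 equals 0.176 to 0.269 CPM, depending on the library. The ratio of summed counts was 2.89 (exact 95% interval 1.04 to 9.19, counting error only). It failed the filter, and with no filter beyond 1 count the log2 fold change was 1.43 with a standard error of 1.29 (edgeR adjusted p = 0.601).

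The ratio between the ELR ligands varied within groups. Per kilobase of exon, Cxcl1 was 7.32 times as abundant as Cxcl2 in APAP1 and 38.0 times in APAP3, and 40.8, 112 and 52.9 times in the saline libraries, the latter resting on 1 Cxcl2 count each. Neutrophil markers, from cells that these ligands attract and that can themselves express Cxcl2, summed to 114 CPM in APAP1 and 73.1 CPM in APAP3, and their part in the ELR ligand levels was not tested.

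The Cxcr3 ligands gave different values although they are neighbours. Cxcl9 had 24 and 67 counts in APAP1 and APAP3 and 216, 273 and 142 counts in WT1, WT2 and WT3, or 1.41 and 4.14 CPM against 19.4, 18.1 and 9.49 CPM. The groups did not overlap. Mean CPM were 15.7 ± 5.38 (SD, n = 3) after saline and 2.78 ± 1.93 (SD, n = 2) after APAP. The log2 fold change was -2.49, with a standard error of 0.55 and a 95% interval of -3.79 to -1.19 (edgeR adjusted p = 0.0435). Leaving out 1 library ended the call in 3 cases, with adjusted p = 0.172 without APAP1, 0.0980 without WT1 and 0.143 without WT2. Without APAP3, the higher of the APAP libraries, the log2 fold change was -3.47, and without APAP1 it was -1.91.

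Cxcl10 had 58 and 62 counts after APAP and 47, 27 and 18 counts after saline. Its CPM of 3.41 and 3.83 lay inside the saline range of 1.20 to 4.21, whose top was WT1. The log2 fold change was 0.61, with a 95% interval of -0.73 to 1.95 that covers both a fall and a rise (edgeR adjusted p = 0.559). Of its exon bases, 133 are also covered by Art3 on the opposite strand, which had 27 and 20 counts after APAP and 31, 51 and 81 after saline. The strand setting of the counting is not given in the sources used here, so reads of the overlap cannot be assigned.

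Within a library, the order of these ligands turned. Per kilobase, Cxcl9 was 3.43, 7.55 and 5.89 times Cxcl10 in the saline libraries, and 0.309 and 0.807 times Cxcl10 in APAP1 and APAP3. Cxcl11, the third interferon-induced ligand of Cxcr3, had 11 and 10 counts after APAP and 8, 87 and 55 after saline. WT1 was at the APAP level, and the log2 fold change of -2.42 (standard error 0.86) was not called (edgeR adjusted p = 0.145). Without WT1 the adjusted p was 0.0428 and the log2 fold change -2.87. Overlapping genes on the opposite strand cover 1582 of its exon bases.

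Cxcl12 was the most abundant of the ligands in saline livers and fell after APAP. It had 5091, 5116 and 5806 counts in WT1, WT2 and WT3 and 2244 and 2201 in APAP1 and APAP3. In CPM the saline libraries held 456, 339.9 and 388, and the APAP libraries 132 and 136. The APAP libraries were within a few percent of each other, and both were far below the lowest saline library. The means were 395 ± 58.5 CPM (SD, n = 3) and 134 ± 2.97 CPM (SD, n = 2). This was a log2 fold change of -1.56 with a standard error of 0.25 and a 95% interval of -2.16 to -0.96, a 2.95-fold lower level (edgeR adjusted p = 0.0187). With 1 library left out it ran from -1.66 to -1.43, and the adjusted p was 0.134 without APAP1, 0.0880 without APAP3 and 0.0723 without WT2. Scaled by library size alone it was -1.15 and stayed called. Stellate and sinusoidal endothelial cells both make Cxcl12. Stellate markers summed to 377 and 538 CPM after APAP against 532 to 653 CPM. Endothelial markers summed to 169 and 237 CPM against 167 to 273 CPM, within the saline range. None of the 8 markers of either cell type was called, and the part of these cells in the fall was not tested.

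Cxcl14 had 57 and 95 counts after APAP and 13, 14 and 17 counts after saline. The saline libraries lay close together at 0.930 to 1.17 CPM, and the APAP libraries were higher and further apart, at 3.35 and 5.87 CPM. The means were 4.61 ± 1.78 CPM (SD, n = 2) and 1.08 ± 0.128 CPM (SD, n = 3). Cxcl14 rose by 2.09 on the log2 scale, with a standard error of 0.43 and a 95% interval of 1.07 to 3.12 (edgeR adjusted p = 0.0374). The call did not hold in any of the 5 fits with 1 library left out. The adjusted p was 0.0929 without APAP1, 0.212 without APAP3, 0.0756 without WT1, 0.139 without WT2 and 0.0683 without WT3. All 5 tested markers of cholangiocytes, an epithelial cell type, were also higher in both APAP libraries than after saline. So were 24.0% of all tested genes. Most of their sum was Spp1, at 276 and 313 CPM in APAP1 and APAP3. Krt19, Krt7 and Epcam stood higher in APAP1 than in APAP3, opposite to Cxcl14. Krt19 had 23.6 and 2.72 CPM against at most 2.54 CPM after saline, and Epcam 8.23 and 2.41 against at most 2.34. Spp1 and Sox9 were higher in APAP3, and Cftr, which was not tested, overlapped. The part of these cells in the Cxcl14 result was not tested.

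Cxcl13, the B cell attractant, had 114 and 207 counts after APAP and 70, 63 and 67 after saline. APAP3 stood at 12.8 CPM, while APAP1 at 6.70 CPM was just above the highest saline library at 6.27 CPM. Its log2 fold change of 0.97 (95% interval 0.09 to 1.85) was not called (edgeR adjusted p = 0.165). It was 0.42 without APAP3 and 1.37 without APAP1.

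Cxcl16 had 85 and 130 counts after APAP and 120, 120 and 63 after saline. The groups overlapped, at 4.99 and 8.04 CPM against 10.8, 7.97 and 4.21 CPM. The log2 fold change was -0.23 with a 95% interval of -1.28 to 0.83 (edgeR adjusted p = 0.80), and its sign turned under 3 of 11 alternatives. Zmynd15 on the opposite strand covers 552 of its exon bases and had 26 to 77 counts per library.

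**Figure D2:**
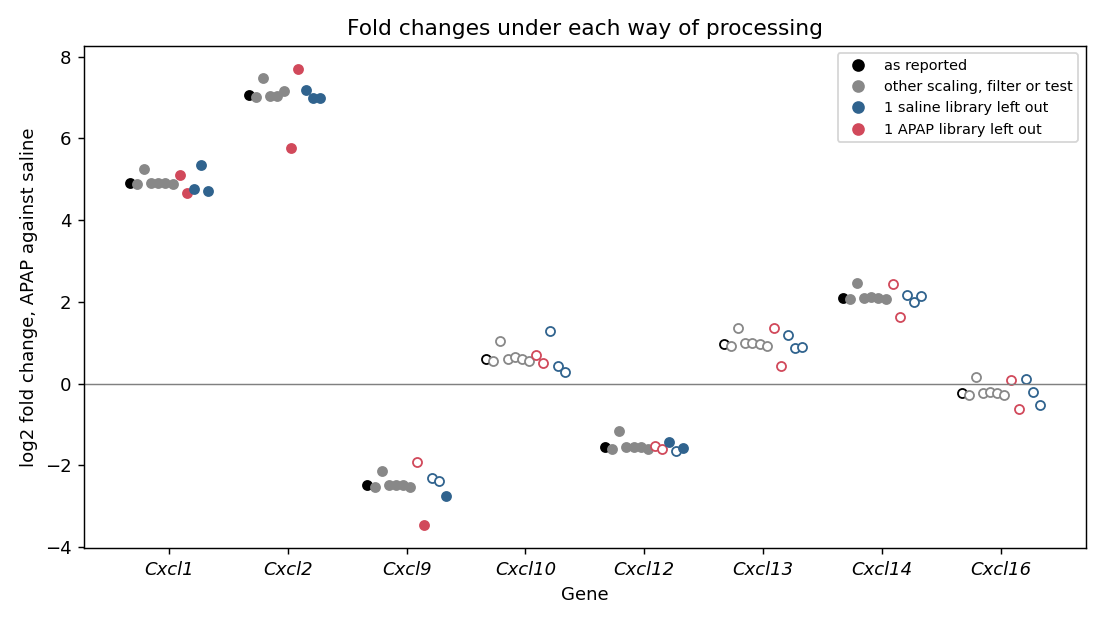
Log2 fold change (APAP against saline) of the 8 tested ligands as reported (black), under another scaling, filter or test (grey) and with 1 saline (blue) or 1 APAP (red) library left out, filled where the adjusted p was under 0.05. Cxcl1 and Cxcl2 are filled throughout, Cxcl14 is open in each of the 5 fits with a library left out, and Cxcl16 crosses 0.

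Levels were compared between the ligands as CPM per kilobase of exon. In saline livers, Cxcl12 stood first at 48.3, followed by Cxcl9 at 5.19, Cxcl13 at 4.33, Cxcl16 at 2.53, Cxcl1 at 2.36, Cxcl10 at 1.07 and Cxcl14 at 0.589 CPM per kilobase. Cxcl5 and Cxcl2 came last, at 0.0838 and 0.0359 CPM per kilobase. The libraries of neighbours in this order overlapped, except between Cxcl12 and Cxcl9, between Cxcl13 and Cxcl16, and between Cxcl14 and Cxcl5. In APAP livers, Cxcl1 stood first at 71.0, followed by Cxcl12 at 16.4, Cxcl13 at 8.48, Cxcl2 at 5.20, Cxcl14 at 2.52, Cxcl16 at 2.16 and Cxcl10 at 1.61 CPM per kilobase. Cxcl9 and Cxcl5 came last, at 0.920 and 0.226 CPM per kilobase. The neighbours from Cxcl13 down to Cxcl10 overlapped, and the others did not.

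By CPM per kilobase, the leading ligand of the set changed from Cxcl12 to Cxcl1. The order after APAP rests on the exon lengths, 8176 bases for Cxcl12 and 1875 for Cxcl1. In plain CPM, the means after APAP were level, at 134 for Cxcl12 and 133 for Cxcl1. Cxcl12 was higher in APAP1 (132 against 113 CPM) and Cxcl1 in APAP3 (153 against 136 CPM). Cxcl12 made up 73.7%, 70.6% and 80.7% of the summed CPM per kilobase of the 9 genes in the saline libraries and 16.8% and 13.8% in APAP1 and APAP3. Cxcl1 made up 2.34%, 6.13% and 2.91% in the saline libraries, but 62.7% and 67.7% after APAP. The 3 ELR ligands together held 71.5% and 69.6% after APAP, against 2.58% to 6.37% after saline. These shares are fixed by the counts already given and add no test. The sum itself was 96.2 and 121 CPM per kilobase after APAP and 75.7, 58.9 and 58.8 after saline. In plain CPM the sum went the opposite way, at 282 and 329 after APAP and 502, 380 and 412 after saline. The direction of the sum thus depends on the scaling by exon length.

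**Figure D3:**
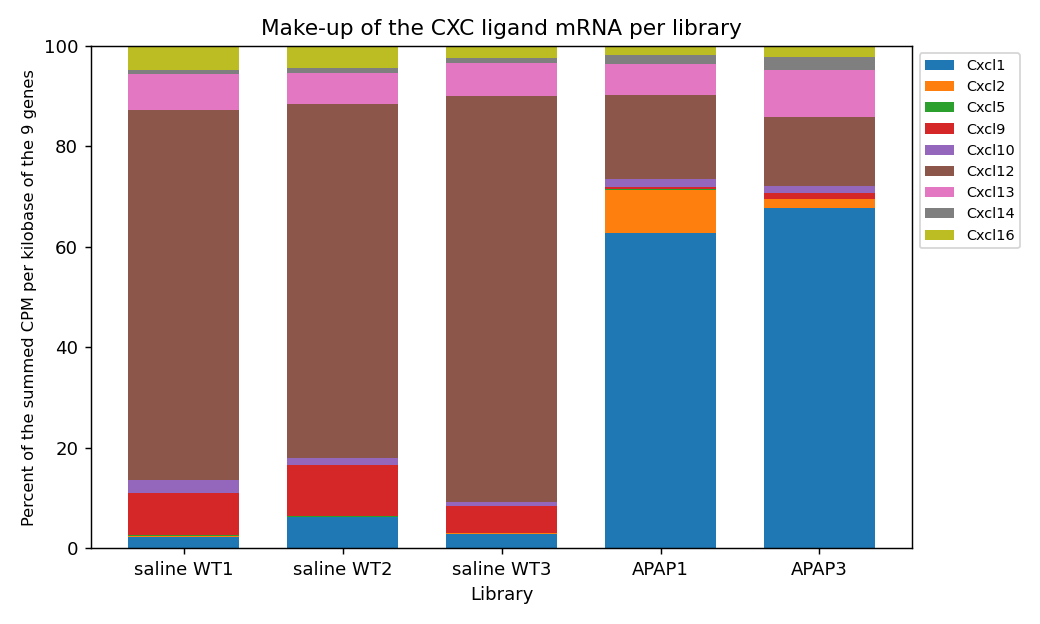
Percent of the summed CPM per kilobase of the 9 CXC ligands taken by each gene, as stacked bars for the 3 saline and the 2 APAP libraries. Cxcl12 (brown) fills 70.6% to 80.7% of the saline bars, and Cxcl1 (blue) 62.7% and 67.7% of the APAP bars.

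The other CXC ligands were low. Of 6, 3 were tested and 0 were called by edgeR's quasi-likelihood test, with 1 at an unadjusted p under 0.05, which was Cxcl11. Over all 13734 tested genes, 7.23% were called and 3413 had an unadjusted p under 0.05. DESeq2 called 1. Pf4, a platelet chemokine, had 29 and 24 counts after APAP and 11, 7 and 10 after saline, a log2 fold change of 1.18 (edgeR adjusted p = 0.242). Ppbp, the other platelet ligand, had 15 and 12 counts against 7, 4 and 5, a log2 fold change of 1.0 (edgeR adjusted p = 0.405). Both stood above the saline libraries, as did 24.0% of all tested genes, without passing the test. Both passed the filter only through APAP. Cxcl17 had 7 counts in APAP1 and 0 elsewhere, and Cxcl15 had 0 counts in all 5 libraries. Each count of 0 allows up to 3 counts, counting error only.

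Cxcr2, the receptor of the ELR ligands, carried mainly by neutrophils, had 135 and 88 counts after APAP and 3, 0 and 10 counts after saline, or 7.93 and 5.44 CPM against at most 0.668 CPM. The summed counts of 223 and 13 gave a ratio of 21.3 (exact 95% interval 12.2 to 40.6, counting error only). Cxcr2 was called and the other 6 tested receptors were not, beside 7.23% of all tested genes. Like Cxcl2, it passed the filter on low counts only through its APAP libraries and so had to differ. The log2 fold change was 4.37 with a standard error of 0.88 (edgeR adjusted p = 0.0348), and the call was lost without APAP1 (0.167), APAP3 (0.0785), WT1 (0.0874) or WT2 (0.0576). The sum of the neutrophil markers was higher in the same libraries, in the same order of APAP1 above APAP3. S100a9 stood at 41.5 and 30.3 CPM against 1.13 to 2.0 CPM, while Ly6g ran the other way, with 4 and 8 counts in APAP1 and APAP3. The part of neutrophils in the Cxcr2 level was not tested. Cxcr1, the related neutrophil receptor, had 13 and 1 counts after APAP and 0, 1 and 0 after saline and was not tested.

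The receptors of the ligands that fell did not pass the test. Cxcr4, the receptor of Cxcl12, had 45 and 55 counts after APAP and 15, 35 and 31 after saline, a log2 fold change of 0.65 with a 95% interval of -0.37 to 1.66 (edgeR adjusted p = 0.404). Ackr3, which scavenges Cxcl12, had 12 and 8 counts against 10, 27 and 17, a log2 fold change of -1.08 (edgeR adjusted p = 0.320). Cxcr3, the receptor of Cxcl9 and Cxcl10, had 8 and 7 counts against 15, 5 and 12 (edgeR adjusted p = 0.550). Cxcr5, Cxcr6 and the scavenger Ackr1 had 4 to 21 counts per library and overlapped between the groups, with log2 fold changes of 0.23, 0.09 and 0.36 and edgeR adjusted p values of 0.876, 0.959 and 0.793. At such counts only large differences could be seen. The median log2 fold change of the 7 receptors was 0.23, against 0.03 over all tested genes.

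Of 6 enzymes that trim or release CXC ligands, 1 was called lower and 1 higher, beside 3.53% and 3.70% of all tested genes. The one called higher, Mmp8, passed the filter only through its APAP libraries, so it had to differ. Dpp4, a dipeptidyl peptidase that clips the N terminus of Cxcl12, Cxcl9 and Cxcl10, had 814 and 692 counts in APAP1 and APAP3 and 2258, 2959 and 2379 in WT1, WT2 and WT3. It fell by 2.04 on the log2 scale, a 4.10-fold lower level (standard error 0.24, edgeR adjusted p = 0.00676), and only leaving out APAP1 lifted the adjusted p above the threshold, to 0.0551. Mmp8, the neutrophil collagenase, which can cleave ELR ligands, had 128 and 42 counts against 6, 1 and 1. Its log2 fold change of 4.57 (standard error 0.90, edgeR adjusted p = 0.0337) was not called without APAP1 (0.210), WT2 (0.126) or WT3 (0.0653). Like Cxcl2 and the sum of the neutrophil markers, Mmp8 was higher in APAP1 than in APAP3. Cxcl1 and the neutrophil marker Ly6g, with 4 and 8 counts, ran the other way.

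The other 4 enzymes did not pass the test. Mmp9 had 81 and 58 counts against 23, 10 and 8, a log2 fold change of 1.97 (edgeR adjusted p = 0.113). Adam10, which sheds Cxcl16 from the membrane, stood at 40.8 and 39.6 CPM against 15.4 to 32.1 CPM, a log2 fold change of 0.74 (edgeR adjusted p = 0.199). Adam17 and Mmp2 had log2 fold changes of -0.23 and -1.17 (edgeR adjusted p = 0.592 and 0.178). The median log2 fold change of the 6 was 0.25, against 0.03 over all tested genes.

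**Figure D4:**
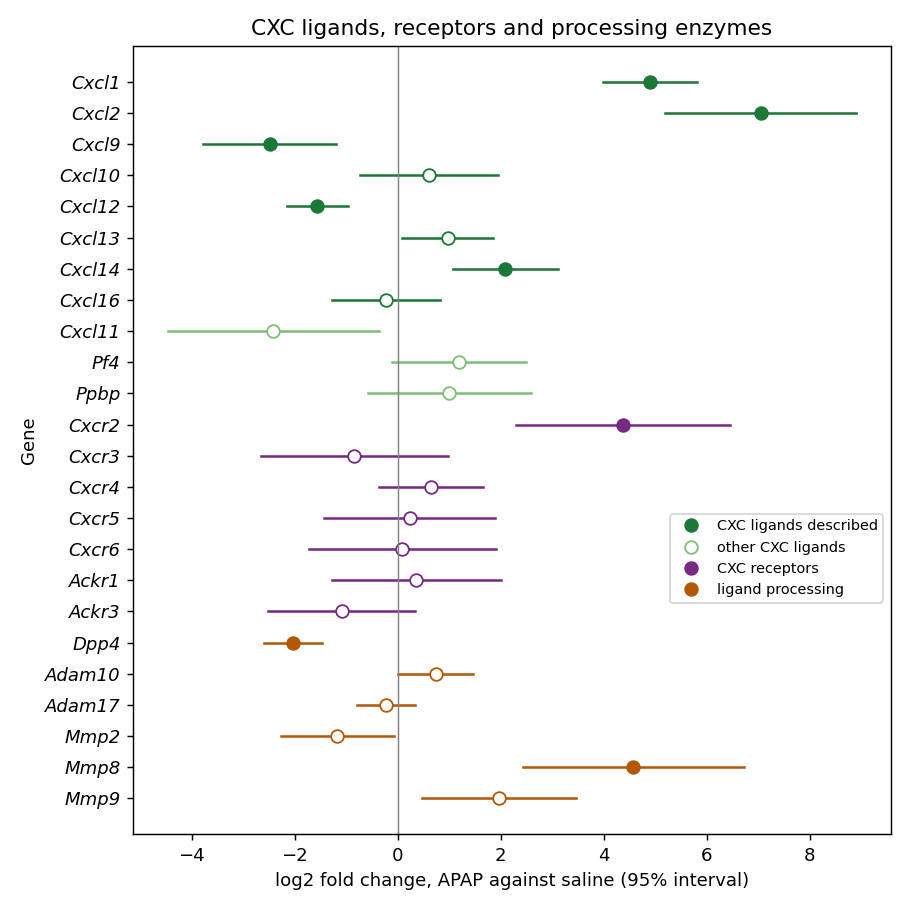
Log2 fold change of APAP against saline with its 95% interval for the tested CXC ligands, receptors and processing enzymes, filled where the edgeR adjusted p was under 0.05. Cxcl1 (4.90), Cxcl2 (7.05), Cxcl14, Cxcr2 (4.37) and Mmp8 (4.57) lie to the right, and Cxcl9, Cxcl12 and Dpp4 to the left.

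Each list of other chemokines and of pathways that induce CXC ligands held 1 called gene, a share near that over all tested genes, of which 7.23% were called and 3.70% rose. Of 19 CC and other chemokines, 9 were tested and 1 was called higher, with a median log2 fold change of 0.78 against 0.03 over all tested genes. At the study's thresholds, 2 of the 9 were higher and 0 lower, beside 12.3% and 11.2% of all tested genes. The gene called was Ccl7, a monocyte attractant, with 40 and 32 counts against 1, 1 and 0. It passed the filter only through its APAP libraries and so had to differ. Its summed counts gave a ratio of 44.7 (exact 95% interval 11.9 to 376, counting error only), with an edgeR adjusted p = 0.0173 that was 0.115 without APAP1, 0.0656 without APAP3 and 0.0805 without WT2. The most abundant of this list, Ccl9, had 557 and 594 counts against 983, 914 and 356 and a log2 fold change of -0.73 (edgeR adjusted p = 0.420).

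Of 17 NF-kB inducers and feedback genes, 15 were tested and 1 was called higher, beside 3.70% of all tested genes. At the study's thresholds, 4 of the 15 were higher and 0 lower, beside 12.3% and 11.2% of all tested genes. The median log2 fold change was 0.02 against 0.03 over all tested genes. Bcl3, an atypical inhibitor of NF-kB, stood at 29.2 and 31.7 CPM against 17.0, 13.2 and 15 CPM. Its log2 fold change of 1.02 (standard error 0.20, edgeR adjusted p = 0.0341) was not called without APAP1 (0.143), APAP3 (0.143), WT2 (0.143) or WT3 (0.0609). The most abundant, Nfkbia, which encodes the classical inhibitor, stood at 42.7 and 41.5 CPM against 49.6 to 56.1 CPM, with a log2 fold change of -0.31 (edgeR adjusted p = 0.359).

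Of 14 genes of the interferon response, 12 were tested and 1 was called higher, beside 3.70% of all tested genes. At the study's thresholds, 1 of the 12 was higher and 1 lower, beside 12.3% and 11.2% of all tested genes. The median log2 fold change was -0.24 against 0.03. Rsad2, an antiviral enzyme induced by interferon, stood at 37.8 and 15.2 CPM in APAP1 and APAP3 against 9.05, 6.18 and 6.81 CPM. Its log2 fold change of 1.85 (standard error 0.40, edgeR adjusted p = 0.0413) was not called without APAP1 (0.239), WT1 (0.0783), WT2 (0.153) or WT3 (0.0830). Stat2, the most abundant, had a log2 fold change of -0.29 (edgeR adjusted p = 0.683). Ifng, the main inducer of Cxcl9, had 0 counts in every library.

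The genes whose pattern over the 5 libraries was nearest to that of Cxcl1 were Mmp3, Uty and Chil3. Their root mean square differences of centred log2 CPM were 0.243, 0.364 and 0.431. The measure adds 0.5 CPM before the log, which narrows differences for genes near 0 in saline livers. The fitted log2 fold changes of these genes were 5.97, 10.62 and 6.73, against 4.90 for Cxcl1. Mmp3, a matrix metalloproteinase, stood at 11.9 and 15.9 CPM after APAP against 0, 0.465 and 0.134 CPM. Chil3, a chitinase-like protein of activated macrophages and neutrophils, stood at 24.9 and 23.0 CPM against 0.179 to 0.267 CPM. Uty is Y-linked and was at 0 in all saline libraries. Nearest to Cxcl12 were Tcn2, Fah and Sirt3, at differences of 0.079, 0.094 and 0.095. Fah, the last enzyme of tyrosine breakdown, stood at 162 and 167 CPM against 561, 428 and 408 CPM. All of these patterns share the same 5 libraries and the same difference between the groups.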

How the data were processed

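RNA of whole livers was made into SMARTER mRNA-Seq libraries and sequenced on an Illumina NovaSeq instrument. The authors deposited raw read counts per gene, which their methods credit to HISAT2, beside StringTie values that were not used here (5 columns). The submitters' processing notes name GRCm38 (mm10). Strand setting and annotation release are not given in the sources used here. The 5 count columns were assigned by name. WT columns were taken as the saline group, without a tie to a numbered sample. Chi-square values per degree of freedom between libraries of a group were 44.1 to 93.7, above sampling noise, so none was counted as a duplicate.

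Counts were tested with edgeR 4.0.16 in R 4.3.3 (filterByExpr with a minimum count of 10, TMM scaling, quasi-likelihood test, Benjamini-Hochberg adjustment over 13734 genes, threshold 0.05), after tests on simulated data. CPM are scaled by TMM. Ratios of summed counts have exact 95% intervals conditional on the total. Alternatives were median-of-ratios size factors, library size only, other count filters, the likelihood ratio test, DESeq2 1.42.0, leaving out each library, and the study's thresholds. Exon lengths, overlaps and shared 50-base words came from GENCODE M21, gene positions from the deposited table.

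Every gene of the lists of CXC ligands, CXC receptors and processing enzymes was to be named. From the lists of CC chemokines, NF-kB and interferon genes, up to 4 called genes with the lowest adjusted p and the most abundant gene were named. Markers were given as sums. The nearest patterns were found with a pseudocount of 0.5 CPM, for the most abundant ELR ligand and the most abundant other ligand. The members and lists were chosen with earlier results of these data known. The ELR class was taken from general knowledge.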

Additional observations from a re-analysis of the deposited data

How the results depend on the processing

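Of the 8 tested ligands, 5 were called, and the count was 4 to 5 under other scalings, filters and tests, 6 at the study's thresholds, and 2 to 4 with 1 library left out. The lowest count, Cxcl1 and Cxcl2 alone, came without APAP1 and without WT2. The strict filter dropped Cxcl2 by its construction. Over all genes, 993 were called, against 1835 with the likelihood ratio test, 2093 with DESeq2, 3228 at the study's thresholds, and 165 to 922 with 1 library left out. Leaving out an APAP library leaves 1, which is assumed to vary like the saline group. Scaling by library size alone shifted the median log2 fold change of all genes by 0.39 and the share of higher calls from 51.2% to 77.8%. Signs turned for genes that were not called, and the cause was not tested. With 1 library left out, log2 fold changes ran from -0.62 to 0.11 for Cxcl16, -0.09 to 0.45 for Cxcr5, -0.37 to 0.43 for Cxcr6, -0.37 to 0.85 for Ackr1 and -0.58 to 0.04 for Adam17. With library size alone, they were 0.17 for Cxcl16, 0.14 for Adam17, 0.09 for Nfkbia and 0.08 for Stat2. The sign turned for Cxcl16 without APAP1 or WT1, for Adam17 without APAP1, for Cxcr5 without APAP1 or WT3, for Cxcr6 without APAP3 or WT2, and for Ackr1 without APAP3. No called ligand turned its sign under any alternative run. No paired analysis was possible because the saline columns carry no number that ties them to the numbered samples. Depth limited Cxcl5 and the other genes below the count filter.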
